A study of Mus musculus with 16 samples.

Results

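Oxt, Avp, Gal, Trh, Lhx8, Arhgap36 and Lbhd2 were followed as a set of genes known mainly from the hypothalamus and basal forebrain, in RNA from mouse neocortex after unilateral decortication. They are 7 of 20134 genes with a value on all 16 arrays, and each was represented by 1 probe, named by the RefSeq transcript it carries (NM_011025 for Oxt, NM_009732 for Avp, NM_010253 for Gal, NM_009426 for Trh, NM_010713 for Lhx8, NM_001081123 for Arhgap36 and NM_001101503 for Lbhd2). The genes were chosen by name with their values known, among them those of the NBH 4 weeks pool against its control, so every level and difference below is a description of these pools. The name of the set covers them only in part. Oxt, Avp, Gal and Trh encode secreted peptides, whereas Lhx8 encodes a transcription factor, Arhgap36 a protein of a family of GTPase activators, and Lbhd2 a small protein that is also known as a transcript of olfactory bulb neurons.

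The study removed the left cerebral cortex by suction, either at P7 (neonatal brain hemisuction, NBH) or in adult mice (adult brain hemisuction, ABH), and sampled the right, unlesioned neocortex rostral from bregma to compare the neonatal with the adult response. All animals were C57BL/6J mice, and the methods describe 4 males for each of control, NBH and ABH, whose RNA was pooled. The methods text does not say how many males went into each pool. The paper also reports Xist, the RNA behind X chromosome inactivation, among genes lower after surgery. X chromosome inactivation is a process of female cells, and whether the surgery pools and their controls differed in sex was not tested. The 4 control pools were P7, P14, P35 and 10 weeks of age and had no suction. NBH 1 week and NBH 4 weeks were sampled at P14 and P35, and ABH 1 week and ABH 4 weeks are labeled as 11 and 15 weeks of age, so that the 10 weeks control used for both is younger than either. Every group was thus 1 RNA pool without a biological replicate, labeled once with Cy3 for chip 1 and once with Cy5 for chip 2, and no p-value was computed. The spread given below is that of the 2 dyes, which is technical.

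A level is the background-corrected log2 intensity of the probe minus the 75th percentile of its array. Calls needed both dyes: a ratio to the control of 1.5 or above made a gene higher, and a ratio of 0.75 or below made it lower. The median spot intensity was 192.5 to 253 per array over a local background of 59 to 72, and 60.2% to 72.2% of the gene spots were well above background by the scanner software's test. Of the 112 values of the 7 genes, 108 were well above background and 0 were saturated, with intensities from 130.5 to 5380. On both chips row 1 held the controls and row 2 the surgery pools, so position and surgery cannot be told apart. In bulk RNA, fewer cells of a type and less RNA per cell cannot be told apart either.

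Oxytocin and vasopressin are made mainly by large neurons of the paraventricular and supraoptic nuclei of the hypothalamus, which release them into the blood from the posterior pituitary and also send axons into the brain. Thyrotropin-releasing hormone from the paraventricular nucleus drives the pituitary-thyroid axis, and its gene is also used in other brain regions. Galanin is used by hypothalamic, brain stem and basal forebrain neurons and is known to rise in neurons after nerve damage. Lhx8 directs the development of cholinergic neurons of the basal forebrain and striatum. The neocortex is not a main source of any of the 4 peptides.

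The promoters of Oxt and Avp are shown first because these neighboring genes stood together in the pool with the highest levels, and those of Trh and Arhgap36 because they hold the same short motif as Oxt. The windows are the 250 bases before the annotated start site in RefSeq GRCm38.p6, written 5′ to 3′ on the strand of the gene. Capitals mark matches, on either strand, to AGGTCA (reverse complement TGACCT), a motif that nuclear receptors bind, or to CACGTG, the E-box of basic helix-loop-helix factors.
Oxt, chr2:130575919-130576168, + strand: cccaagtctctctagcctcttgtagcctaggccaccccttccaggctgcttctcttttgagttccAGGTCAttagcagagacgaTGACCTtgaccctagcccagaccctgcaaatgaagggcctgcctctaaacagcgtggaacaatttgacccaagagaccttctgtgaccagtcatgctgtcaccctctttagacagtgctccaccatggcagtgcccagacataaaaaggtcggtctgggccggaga
Avp, chr2:130582589-130582838, - strand: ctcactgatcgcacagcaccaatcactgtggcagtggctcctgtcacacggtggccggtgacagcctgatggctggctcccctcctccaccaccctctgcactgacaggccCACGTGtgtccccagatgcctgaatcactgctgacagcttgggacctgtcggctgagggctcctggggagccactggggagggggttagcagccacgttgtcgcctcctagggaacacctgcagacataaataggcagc
Trh, chr6:92244651-92244900, - strand: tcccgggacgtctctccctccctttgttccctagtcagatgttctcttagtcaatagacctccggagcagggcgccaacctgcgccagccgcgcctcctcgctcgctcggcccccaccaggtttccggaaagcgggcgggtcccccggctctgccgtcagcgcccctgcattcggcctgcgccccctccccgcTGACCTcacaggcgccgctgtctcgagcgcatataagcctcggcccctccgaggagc
Arhgap36, chrX:49463695-49463944, + strand: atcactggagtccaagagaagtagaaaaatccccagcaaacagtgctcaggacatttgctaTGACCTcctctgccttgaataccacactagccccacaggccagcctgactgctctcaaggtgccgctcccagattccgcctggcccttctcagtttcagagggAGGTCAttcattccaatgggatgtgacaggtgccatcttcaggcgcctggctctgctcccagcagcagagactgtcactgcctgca
In Oxt the motif AGGTCA began 185 bases before the start site on the gene's strand and 166 bases before it on the opposite strand. Arhgap36 also held a match on each strand, which began 86 and 189 bases before the start site, and Trh held 1 match on the opposite strand, which began 57 bases before it. Avp held CACGTG, beginning 139 bases before the start site. Of 32851 promoter windows of this length, 14.0% held AGGTCA and 6.02% held CACGTG on either strand, so that both are common. The letters TATAAA (12.4% of all windows) and TGACGTCA (1.55%) were in none of the 8 windows annotated for the 7 genes, 2 of which belong to Arhgap36, and the windows of Gal, Lhx8 and Lbhd2 held none of the 4 motifs.

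Oxt had the widest range of the 7 genes over the 8 pools. Its levels in the controls with Cy3 and Cy5 were −2.85 and −2.84 at P7, −2.21 and −2.19 at P14, 1.60 and 1.37 at P35, and −1.06 and −1.35 at 10 weeks. They were −2.10 and −2.78 in NBH 1 week, −2.08 and −2.16 in NBH 4 weeks, −2.11 and −2.07 in ABH 1 week, and −1.41 and −1.70 in ABH 4 weeks. Control P35 thus stood above every other pool with both dyes, by 2.69 over the next pool (control 10 weeks), and the range from the lowest to the highest pool was 20.1-fold. ABH 1 week and NBH 4 weeks overlapped in the dyes, as did control P14 and NBH 1 week.

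Avp, which lies next to Oxt on chromosome 2, was a dim probe in 7 of the 8 pools. Its levels in the controls were −3.59 and −3.82 at P7, −3.30 and −3.59 at P14, −1.58 and −1.71 at P35, and −3.20 and −3.64 at 10 weeks. They were −2.95 and −3.21 in NBH 1 week, −3.09 and −3.39 in NBH 4 weeks, −3.43 and −3.63 in ABH 1 week, and −2.79 and −2.94 in ABH 4 weeks. At P7 the probe was not well above background on either array and at P14 it was so on 1 of 2, so these are bounds. Control P35 was again above all other pools, by 1.22 over the next pool (ABH 4 weeks), and below those 2 pools each neighbor in the order overlapped the next, from NBH 1 week down to control P7.

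Trh followed age rather than the pattern of Oxt. Its levels in the controls fell from 1.80 and 1.70 at P7 to 0.52 and 0.41 at P14, −0.08 and −0.11 at P35, and −0.83 and −0.90 at 10 weeks, with no overlap between successive ages. They were 0.48 and 0.78 in NBH 1 week, −1.29 and −1.49 in NBH 4 weeks, −1.47 and −1.51 in ABH 1 week, and −0.75 and −1.14 in ABH 4 weeks. NBH 4 weeks, at P35, was therefore below the 10 weeks control, and NBH 1 week overlapped the control of its age.

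Gal was the least variable, with pool means from −0.02 in ABH 4 weeks to 0.72 in ABH 1 week, a 1.67-fold range. The levels of ABH 1 week were 0.68 and 0.76, those of control P35, the next pool, 0.50 and 0.60, and those of ABH 4 weeks −0.17 and 0.13. The other 5 pools had means from 0.17 to 0.37, and 5 of the 7 neighboring pools in the order overlapped.

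Lhx8 was lowest in the youngest control. Its levels were −3.34 and −3.38 at P7, where the probe was well above background on 1 of 2 arrays, −1.49 and −1.52 at P14, −1.44 and −1.24 at P35, and −2.21 and −2.17 at 10 weeks. They were −2.35 and −2.06 in NBH 1 week, −2.74 and −2.97 in NBH 4 weeks, −2.68 and −2.65 in ABH 1 week, and −1.80 and −1.87 in ABH 4 weeks. Control P35 was the highest pool by only 0.17 over control P14.

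Arhgap36, whose product is known to act in Hedgehog signaling and on protein kinase A, was at −1.51 and −1.48 at P7, −1.83 and −1.96 at P14, −1.42 and −1.36 at P35, and −2.53 and −2.44 at 10 weeks. It was at −2.05 and −1.70 in NBH 1 week, −3.22 and −3.19 in NBH 4 weeks, −3.22 and −3.14 in ABH 1 week, and −2.92 and −3.15 in ABH 4 weeks. The 3 last pools were the lowest of the 8. ABH 1 week overlapped each of the other two, whereas ABH 4 weeks lay above NBH 4 weeks with both dyes.

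Lbhd2 was at −1.32 with both dyes at P7, −1.94 and −2.05 at P14, −0.18 and −0.28 at P35, and −0.80 and −1.05 at 10 weeks. It was at −1.62 and −1.66 in NBH 1 week, −2.14 and −2.45 in NBH 4 weeks, −1.47 and −1.18 in ABH 1 week, and −1.69 with both dyes in ABH 4 weeks. Control P35 was the highest pool, by 0.70 over control 10 weeks, and NBH 4 weeks was the lowest.

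**Figure D1:**
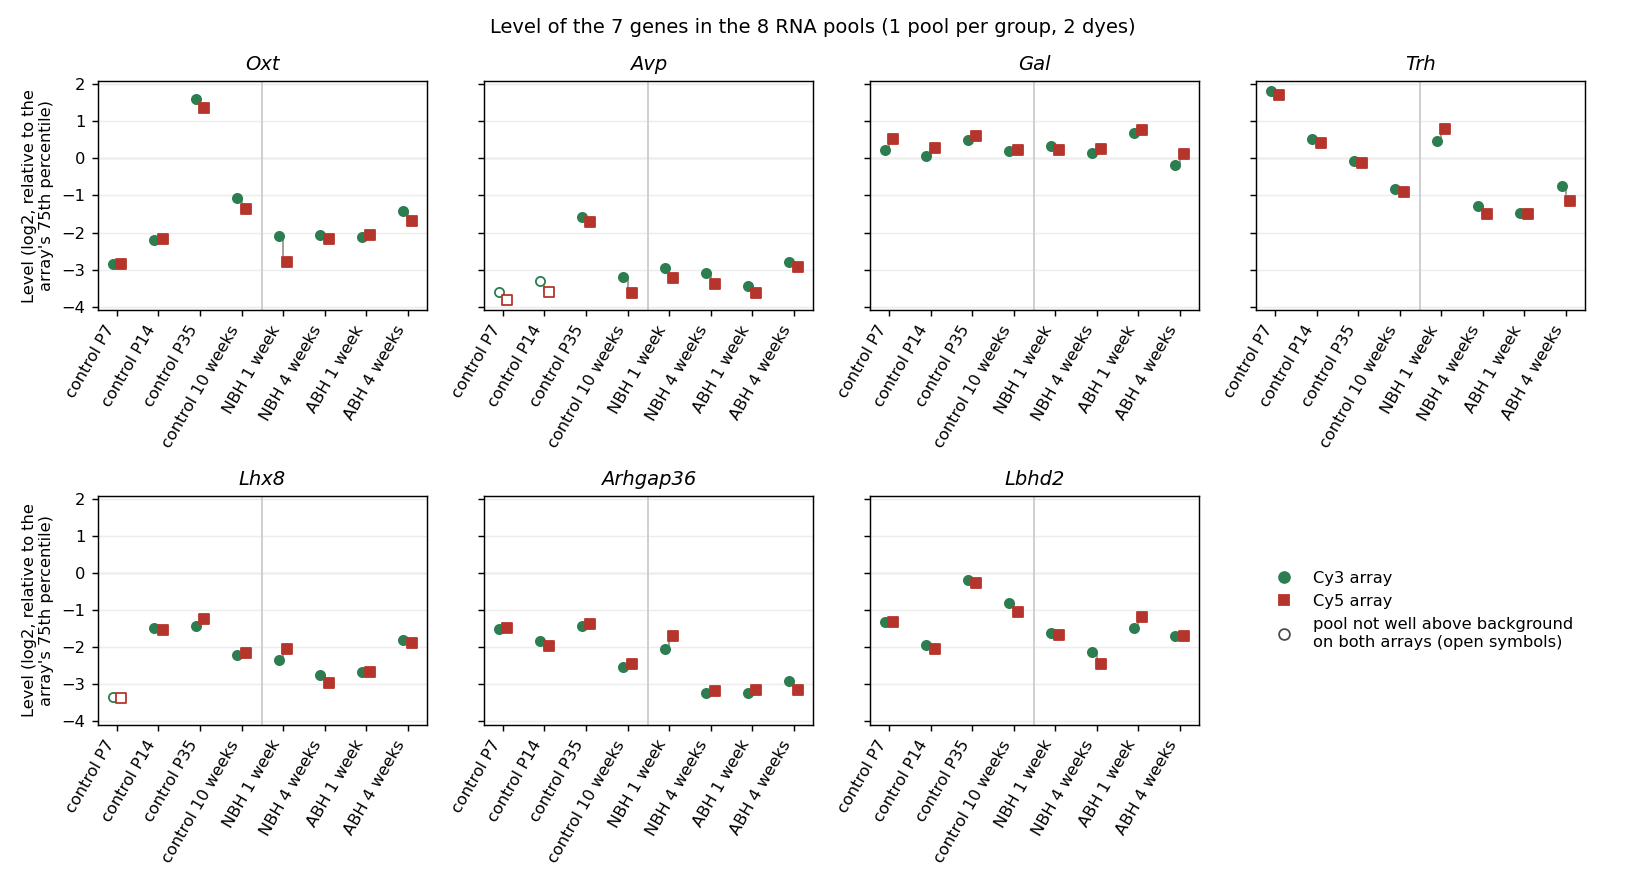
Level of each of the 7 genes (y axis, log2 relative to the 75th percentile of the array) in the 4 control pools and the 4 surgery pools (x axis), with a circle for the Cy3 array and a square for the Cy5 array of the same pool. Oxt, at 1.60 and 1.37, and Avp, at −1.58 and −1.71, stood above all other pools in control P35, whereas Trh fell with age in the controls.

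Thus 5 of the 7 genes (Oxt, Avp, Lhx8, Arhgap36 and Lbhd2) had their highest pool mean in control P35, which held for 4.75% of the 16761 genes that any pool measured well above background with both dyes. The margin differed between them. Oxt, Avp and Lbhd2 were at least 1.5-fold above each of the other 7 pools with both dyes, a property of 5 of the 15668 genes well above background in control P35 (0.0319%), and the other 2 genes were Dipk2b and Dlk1. Dlk1, an imprinted gene that hypothalamic neurons are also known to use, exceeded its next pool by 0.69, and Dipk2b by 0.75. Because control P35 is the control of NBH 4 weeks alone, that comparison rests on it.

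Between successive control ages the genes went different ways. From P7 to P14, 6 of the 7 genes were tested, and Oxt (0.65 ± 0.01) was higher, as was Lhx8 by at least 3.61-fold over its bound, beside 8.58% of all genes, whereas Trh (−1.28, with an SD below 0.01) and Lbhd2 (−0.68 ± 0.08) were lower, beside 14.6%. From P14 to P35, Oxt (3.68 ± 0.18), Lbhd2 (1.77 ± 0.01) and Avp (at least 3.49-fold) were higher, beside 2.28% of all genes, and Trh alone was lower, at −0.57 ± 0.05, beside 6.37%. The peptide pair and Lbhd2 thus rose to P35 and stood lower at 10 weeks, and Trh was lower at each later age.

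In NBH 4 weeks against control P35, 6 of the 7 genes were lower, whereas 0.75% of the 15873 genes tested were called lower and 0.214% higher. Oxt differed by −3.61 ± 0.11 on the log2 scale (mean ± SD of the 2 dyes), or 12.2-fold, which was the largest decrease of all genes called. Lbhd2 (−2.07 ± 0.15, 4.20-fold), Arhgap36 (−1.82 ± 0.02, 3.52-fold), Avp (−1.60 ± 0.12, 3.02-fold) and Lhx8 (−1.52 ± 0.29, 2.86-fold) followed in that order, and Trh (−1.29 ± 0.12, 2.45-fold) was the 9th. Between them stood Dlk1 (−1.51), Cbx7 (−1.38) and Nts (−1.33), the gene of the peptide neurotensin. These ranks are among the values by which the genes were chosen. Gal, at −0.35 ± 0.01, lay below its control with both dyes and did not pass the limit. The median of the 7 genes was −1.60, beside 0.04 for all genes tested.

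The same NBH 4 weeks pool was set against the 10 weeks control, which the older surgery pools also use. There 5 of the 7 genes were lower, beside 3.29% of all genes tested, with smaller differences. Lbhd2 differed by −1.37 ± 0.05, Oxt by −0.92 ± 0.15, Arhgap36 by −0.72 ± 0.04, Lhx8 by −0.67 ± 0.18 and Trh by −0.53 ± 0.09. Avp turned to 0.18 ± 0.10 and Gal was at −0.00 ± 0.06, and neither was called. The 2 controls themselves differed in the same genes: the 10 weeks control was lower than control P35 in 6 of the 7 (0.806% of all genes tested), with Oxt at −2.69 ± 0.04 and Avp at −1.77 ± 0.22. None of the 7 was called higher in either comparison (0.252% of all genes in NBH 4 weeks against control 10 weeks and 1.83% between the controls). The difference of Avp in NBH 4 weeks was thus one that the unlesioned 10 weeks control showed as well, at a different age and in a single pool. Set against control P35, both adult pools were also lower in 6 of the 7 genes, with Oxt at −3.57 ± 0.19 in ABH 1 week (1.99% of all genes lower and 4.69% higher) and −3.04 ± 0.04 in ABH 4 weeks (0.989% lower and 3.43% higher). Gal was the gene not called in ABH 1 week and Lhx8 that in ABH 4 weeks.

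**Figure D2:**
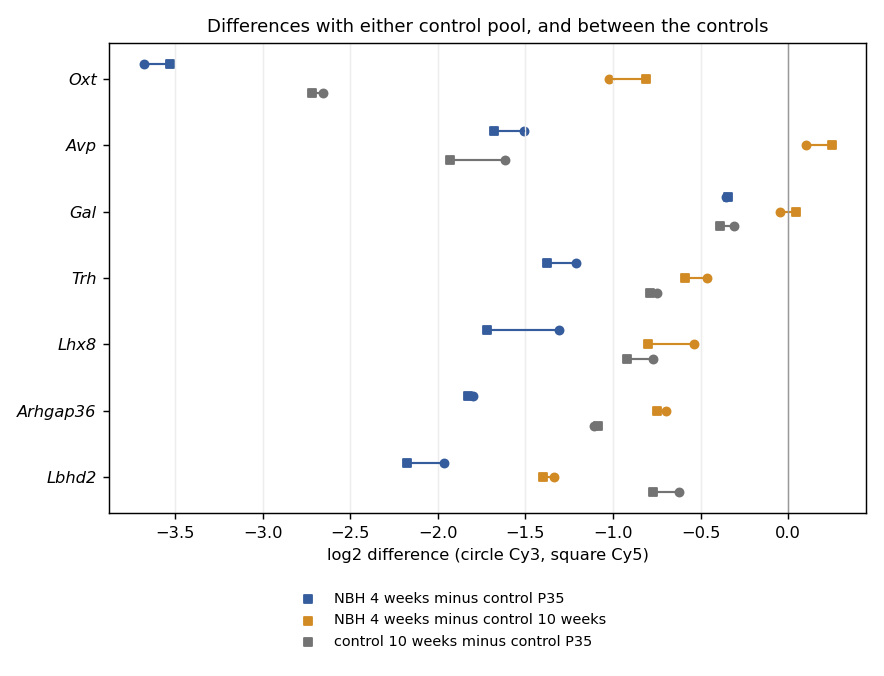
Difference on the log2 scale (x axis) of each gene (y axis) between NBH 4 weeks and control P35, between NBH 4 weeks and control 10 weeks, and between the 2 controls, with a circle for Cy3 and a square for Cy5. Oxt was at −3.61 against control P35 and −0.92 against control 10 weeks on average, and Avp moved from −1.60 to 0.18.

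NBH 1 week was compared with control P14 to show the early response after neonatal suction. Lhx8 alone of the 7 genes was called (0.427% of the 15469 genes tested were called lower and 0.472% higher), at −0.70 ± 0.23 or 1.62-fold lower. Avp (0.37 ± 0.02, with its control at a bound) and Lbhd2 (0.36 ± 0.05) were above their control with both dyes and under the limit. Gal (0.11 ± 0.22), Trh (0.16 ± 0.29), Arhgap36 (0.02 ± 0.34) and Oxt (−0.25 ± 0.49) had dyes of opposite sign, and none of these differences exceeded the spread between dyes. Against control P7, the age of the suction, Avp and Lhx8 were higher over controls at their bounds (8.22% of all genes were higher) and Trh was lower by −1.12 ± 0.29 (9.52% were lower). From NBH 1 week to NBH 4 weeks, at which time the animals were also older, Trh was lower by −2.02 ± 0.36, Arhgap36 by −1.33 ± 0.23 and Lbhd2 by −0.66 ± 0.19, the 3 genes called (6.6% of all genes tested were lower and 1.73% higher), whereas Oxt was at 0.32 ± 0.42 and Avp at −0.16 ± 0.02.

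ABH 1 week was compared with control 10 weeks to show the early adult response, and 4 of the 7 genes were lower, beside 6.37% of the 16320 genes tested, and 0 were higher, beside 4.44%. Oxt differed by −0.88 ± 0.24 (1.84-fold), Arhgap36 by −0.70 with an SD below 0.01 (1.62-fold), Trh by −0.63 ± 0.02 (1.54-fold) and Lhx8 by −0.48 ± 0.01 (1.40-fold). Gal was higher with both dyes, at 0.52 ± 0.04 or 1.43-fold, just under the limit of 1.5-fold. Lbhd2 (−0.40 ± 0.38) and Avp (−0.11 ± 0.17) were not called. The scaling matters here. Relative to the array median instead of the 75th percentile, the median of all genes tested was 0.18 instead of −0.08. Of the 16320 genes, 1.92% were then called lower, and Oxt alone of the 7 genes was, at −0.62. Gal passed the limit as higher, at 0.77, in a setting where 1266 of all genes tested were called higher instead of 725.

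ABH 4 weeks was set against the same 10 weeks control, so that the 2 adult comparisons share it. Lbhd2 alone was called, at −0.76 ± 0.17 or 1.70-fold lower (0.196% of the 16294 genes tested were called lower and 0.43% higher). Arhgap36 (−0.55 ± 0.22), Oxt (−0.35, with both dyes within 0.01 of each other) and Gal (−0.22 ± 0.20) were below the control with both dyes, and Avp (0.55 ± 0.21) and Lhx8 (0.35 ± 0.08) above it, without passing the limits. Trh was at −0.08 ± 0.23. From ABH 1 week to ABH 4 weeks Lhx8 was higher by 0.83 ± 0.07 and Avp by 0.67 ± 0.04 (3.79% of all genes tested were called higher), and Gal was lower by −0.74 ± 0.16 (4.95% called lower).

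**Figure D3:**
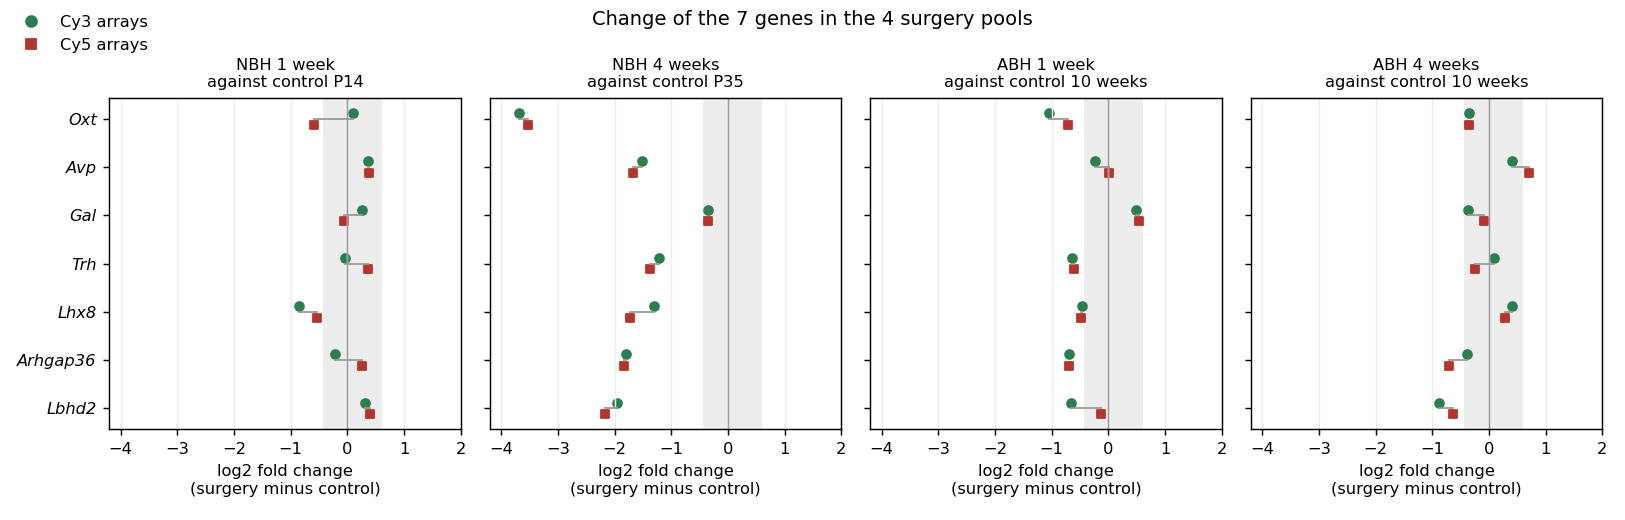
Difference of each surgery pool from its control (x axis, log2 fold change) for the 7 genes (y axis), with a circle for the Cy3 arrays and a square for the Cy5 arrays, and the range between the limits of 0.75-fold and 1.5-fold in gray. Oxt in NBH 4 weeks, at −3.68 and −3.53, lay farthest from 0, and Gal lay within the gray range in all 4 comparisons.

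Genes that act with the peptides were counted next. Of 9 receptor genes, 3 or 4 were tested in each surgery comparison and 0 were called. Oxtr, the oxytocin receptor, was above background in all pools and differed by −0.03 in NBH 4 weeks and 0.04 in ABH 1 week, where Oxt itself was lower. In the controls Oxtr was higher early, with 0.02 at P7, −0.14 at P14, −0.81 at P35 and −0.99 at 10 weeks. Trhr, a receptor for thyrotropin-releasing hormone, was at −0.95, −1.72, −2.01 and −1.86 at the same ages and differed by −0.15 in NBH 4 weeks and −0.29 in ABH 1 week. Avpr1a, a vasopressin receptor, was well above background at P7 alone (−1.89), and Avpr1b and Galr1 were above it on no array. Of 16 genes of peptide processing and release (such as Pcsk1, Cpe and Scg2, which encode a prohormone convertase, a carboxypeptidase and a granule protein), all were tested and 0 were called in any of the 4 comparisons, with medians from −0.11 to 0.15. Cpe and Chgb were saturated on all arrays, so that no difference could show in them. With these 2, 4 of the 16 genes were saturated on at least 1 array, so their differences may be clipped.

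Of 31 other hypothalamic genes 4 had their highest pool mean in control P35, namely Gpr101 (−1.09), Six3 (−0.31), Calcr (−2.98) and Ghsr (−3.50). This held for 4.75% of all genes measured well above background with both dyes in any pool. Ghsr was well above background on only 1 of the 2 arrays of control P35 and with both dyes in no pool. It lies outside the genes of that share, as do the other listed genes that no pool measured so with both dyes. On no array were 4 of the 31 genes well above background. The 7 genes were chosen with their control P35 differences known, so their own count is no fair comparison. In all, 21 were tested in NBH 4 weeks, where 4 were lower (Gpr101 at −1.28, Six3 at −1.03, and Calcr and Baiap3, whose NBH 4 weeks levels are bounds) and 1, Rax, was higher against a control at its bound. Their median was 0.04, as was that of all genes tested, and their summed signal, in multiples of each array's 75th percentile, was 11.9 in control P35 and 11.5 in NBH 4 weeks, within 9.89 to 14.1 over the controls. Cartpt (1.29 and 1.41) and Tac2 (1.09 and 1.05) had the highest levels of the list in these 2 pools. The sum therefore says little about dimmer genes such as Gpr101, Six3, Calcr and Baiap3. Sim1, a transcription factor that specifies oxytocin and vasopressin neurons, was not well above background on any array. Otp, another such factor, was so on 1 of 2 arrays of control P35, on both arrays of control 10 weeks and ABH 4 weeks and on none of the other pools. Hcrt, the hypocretin gene of the lateral hypothalamus, was between −2.38 at P35 and −1.98 at P7, and Pomc between −0.50 at 10 weeks and 0.09 in NBH 1 week. These 2 genes lacked the peak of Oxt in control P35, unlike Gpr101, Six3 and Calcr, which were also highest there.

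Markers of the basal forebrain, striatum and olfactory bulb moved with the 7 genes in NBH 4 weeks. Of 14 other basal forebrain genes, 6 of the 12 tested were lower, the 5 largest being Slc5a7 (−0.91), Ngfr (−0.86), Isl1 (−0.74), Slc18a3 (−0.67) and Zic1 (−0.63), of which Slc5a7 and Slc18a3 encode the transporters that cholinergic neurons need. Of 12 striatum genes 10 were lower, among them Syndig1l (−1.01), Sh3rf2 (−0.98), Ido1 (−0.86) and Drd1 (−0.81), and of 11 olfactory bulb genes 5 of the 10 tested, led by Cdhr1 (−1.10), Pbx3 (−0.79) and Doc2g (−0.78). The summed signal of the striatum list was 100.3 in control P35, 68.2 in NBH 4 weeks and 66.5 in control 10 weeks. That of the basal forebrain list was 47.3, 40.5 and 42.6. Most of the basal forebrain sum was Lhx6, at levels of 5.32, 5.13 and 5.19 in these pools, and Lhx6 was not called. In the striatum list Ppp1r1b had the highest level in control P35, at 5.53, where the saturated Cpe and Chgb also stood. Of the striatum genes 1 was saturated on at least 1 array, so the striatum sum may be clipped. Against the 10 weeks control, 1 striatum gene, 1 basal forebrain gene and 6 olfactory bulb genes were lower in NBH 4 weeks. Of 14 neocortical neuron genes 1 was lower (Bcl11b at −0.48, a gene the striatum also uses), and their summed signal was 77.3 in control P35 and 79.2 in NBH 4 weeks. How much of the differences of the 7 genes goes with the tissue taken was not tested.

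In the other comparisons the lists gave other counts. In ABH 4 weeks 8 of the 12 striatum genes were higher, led by Ido1 (1.28), Rgs9 (1.15) and Adora2a (1.13), and 5 of the 9 olfactory bulb genes tested were lower, while 1 of the 7 genes, Lbhd2, was lower. In ABH 1 week 0 striatum genes and 5 olfactory bulb genes were called, along with 4 hypothalamic genes that were lower (Gpr101 at −0.86, Ghrh at −0.69, Kiss1 at −0.47 and Cartpt at −0.45). There 7 of 9 microglia and macrophage genes and 3 of 7 astrocyte genes were higher, and the summed signal of these lists was 89.9 and 102.1, against 38.1 and 56.1 in control 10 weeks. Choroid plexus genes were higher in NBH 1 week (9 of 15 tested), NBH 4 weeks (4 of 15) and ABH 4 weeks (10 of 15), with Ttr at 6.53, 4.90 and 5.74, and in ABH 1 week 1 of 13 was higher and 2 were lower. The part of these lists in the differences of the 7 genes was not tested.

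**Figure D4:**
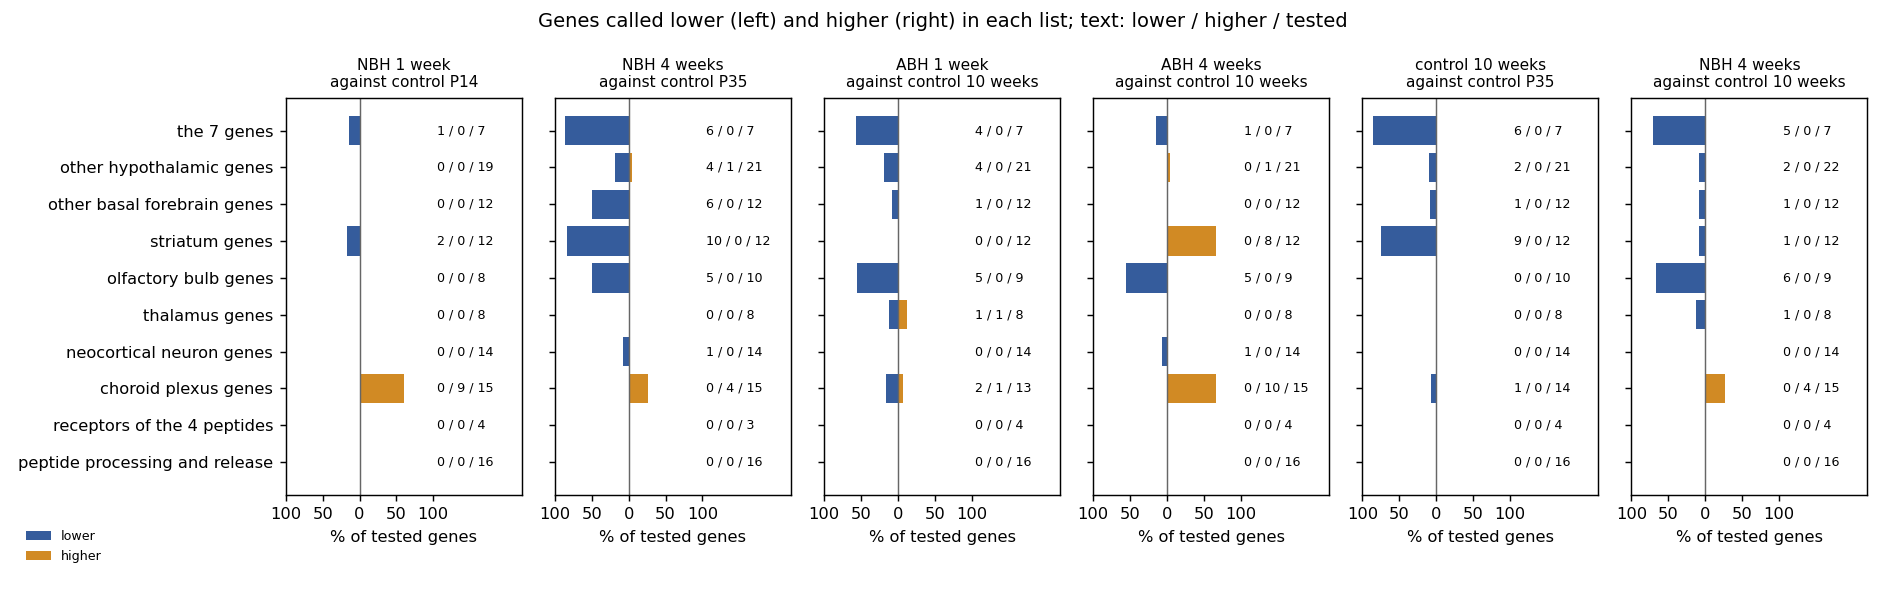
Share of the tested genes of each list (y axis) called lower (bars to the left) or higher (bars to the right) in the 4 surgery comparisons, in control 10 weeks against control P35 and in NBH 4 weeks against control 10 weeks (x axis, percent), with the counts lower, higher and tested beside the bars. In NBH 4 weeks against control P35, 6 of the 7 genes and 10 of 12 striatum genes were lower, whereas 0 receptor and processing genes were called.

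The likeness of the profiles over the 8 pool means was described by Pearson's r, among 3825 genes that varied by at least 1 on the log2 scale and were well above background in at least 2 pools. All points share the 2 chips and the row of their group. Oxt was most like Dlk1 (0.92), Avp (0.91) and Syna (0.90), and Lbhd2 most like Dlk1 (0.90), Syna (0.79) and Oxt (0.77). Lhx8 was most like Gpr101 (0.96), Slc5a7 (0.94) and Drd1 (0.94), Trh most like Cstdc5 (0.99), Dgkk (0.99) and Celf6 (0.98), and Arhgap36 most like Nts (0.91), Dgkk (0.89) and Gprin3 (0.87). Avp followed Oxt, Syna (0.89) and Calcr (0.78), and Gal varied by less than the limit. Without control P35 the r between Oxt and Avp was 0.40 and that between Oxt and Lbhd2 0.28, so that their likeness rests on this pool, whereas Trh and Arhgap36 had an r of 0.86 with it and 0.97 without it.

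Oxt and Avp are adjacent in the annotation of chromosome 2, between Mrps26 and Ubox5. In NBH 4 weeks the 4 nearest protein-coding genes around them differed by 0.07 (Ptpra), 0.10 (Mrps26), 0.04 (Ubox5) and −0.10 (Fastkd5), and none was called. In ABH 1 week, where Oxt was lower, these 4 genes lay between −0.22 and 0.09. The other 5 genes lie on chromosomes 3 (Lhx8), 6 (Trh), 12 (Lbhd2), 19 (Gal) and X (Arhgap36).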

How the data were processed

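Total RNA of 8 pools of right neocortex was hybridized by the authors to Agilent mouse 8 × 60K arrays, scanned and quantified with Agilent Feature Extraction 11.0.1.1, per the submitters' processing notes. The deposited scanner tables hold spot and background intensity in arbitrary units for the mm9 design, and the deposited value table holds the processed intensity of the labeled channel without scaling between arrays. From these, the median intensity was background-corrected by normexp (limma 3.58.1 in R 4.3.3, offset 50), put on the log2 scale and centered by subtracting the 75th percentile of its array. The offset shrinks differences of dim probes. Spots marked as outliers (140 to 237 per array) were dropped, and repeated spots averaged. Other steps used Python 3.11.15, numpy 2.4.6 and pandas 2.3.3.

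Probes were named through RefSeq accessions (GRCm38.p6, names only), and a gene was the probe with the highest mean. A gene was tested when either pool of a pair measured it well above background with both dyes. In a pool that did not, a value under the lowest well-above signal of its array was raised to that signal, and the difference was treated as a bound. For the 7 genes this changed no difference, so the folds given for them as bounds are the measured ones. The 7 genes and all lists were chosen with earlier results of these data known. The rule for naming was at most 5 called genes with the largest differences per list and comparison, and the 3 most alike genes per gene. For several lists and comparisons fewer names or counts alone are given. Counts of the neocortical peptide, meninges and ependymal lists are not given. Cbx7, Dipk2b, Hcrt, Pomc, Sim1, Otp and the receptors with values were named after their values were seen. A striatum gene that this rule names is not reported here.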

Additional observations from a re-analysis of the deposited data

Results flagged for a closer look

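Avp, Lbhd2 and Lhx8 changed direction between comparisons of the same kind, with both dyes of 1 comparison on one side of 0 and both dyes of the other on the opposite side, and at least 1 of the 2 called. These differences were not tested, since each group is 1 pool. Avp was at 0.37 in NBH 1 week and −1.60 in NBH 4 weeks, a gap of −1.97, and at 0.55 in ABH 4 weeks, 2.15 above NBH 4 weeks. Lbhd2 was at 0.36 in NBH 1 week and −2.07 in NBH 4 weeks, a gap of −2.42. Lhx8 was at −0.48 in ABH 1 week and 0.35 in ABH 4 weeks, a gap of 0.83, and ABH 4 weeks was 1.86 above NBH 4 weeks (−1.52). The gaps that involve NBH 4 weeks rest on control P35: against control 10 weeks, NBH 4 weeks was at 0.18 for Avp, −1.37 for Lbhd2 and −0.67 for Lhx8.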

How the results depend on the processing

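Each group is 1 RNA pool, so the limits below concern processing alone. The differences of the 7 genes were recomputed under 13 alternatives, of which the one without scaling between arrays was chosen after seeing the data. Of 363 values, 323 kept their call or lack of one, of which 22, called under neither setting, changed sign (8 of them Arhgap36 in NBH 1 week), 14 lost the call, 22 gained one and 4 reversed with a call under at least 1 setting, all 4 with another control pool: against control P7, NBH 1 week was at −1.12 for Trh and 1.15 for Lhx8; against control 10 weeks, NBH 4 weeks was at 0.18 for Avp; and against control P35, ABH 4 weeks was at −1.22 for Avp. The number of genes called in NBH 4 weeks was 6, and 5 to 7 under every alternative. In NBH 1 week it was 1, and became 2 with the processed signal, 0 with 2-fold limits and with symmetric 1.5-fold limits, and 3 against control P7. In ABH 1 week it was 4, and became 2 with median scaling and with quantile normalization, and 0 with 2-fold limits. In ABH 4 weeks it was 1, and became 3 with the processed signal and with a normexp offset of 0, 2 with the authors' value table and with quantile normalization, 0 with 2-fold limits, and 6 against control P35. Leaving out replicate 1 (Cy5 alone) or replicate 2 (Cy3 alone) gave 1 to 2 at NBH 1 week, 6 both times at NBH 4 weeks, 4 to 5 at ABH 1 week, and 1 to 3 at ABH 4 weeks. Control P35 was the highest pool of 5 of the 7 genes under all 8 alternatives that change the levels. The share of all genes called lower moved with the setting, from 0.427% to between 0.0194% and 9.52% in NBH 1 week, from 0.75% to between 0.0945% and 7.98% in NBH 4 weeks, from 6.37% to between 0.135% and 15.6% in ABH 1 week, and from 0.196% to between 0.00614% and 5.7% in ABH 4 weeks. The causes were not tested. Avp lay near the background in most pools, where differences are least certain. In NBH 4 weeks Arhgap36 was as dim, with intensities of 143 and 151.5 beside 155 and 139 for Avp. Lhx8 was at 185 and 173.5 in that pool, and Arhgap36 at 168.5 and 174 in ABH 1 week and 184 and 145 in ABH 4 weeks. Normexp on the mean signal was not run, since the tables used here give the median, and a second probe had no value because each gene has 1. No paired analysis was possible because each group is 1 pool, and the dyes were already matched.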
